A study of Mus musculus with 6 samples.

Results

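The tricarboxylic acid cycle genes examined in Mrps5 mutant hearts were Cs, Idh3a, Idh3b, Idh3g, Idh2, Ogdh, Suclg1, Fh1 and Mdh2. They were picked as a list of enzymes by symbol, 9 genes of the 26191 in the deposited table, and the FPKM (fragments per kilobase of transcript, scaled to the mapped fragments of the library) of all transcript rows of a gene were added. All 9 were listed, and all 9 passed the filter on low values, 1 FPKM or more in 3 or more libraries of the 6, which left 13260 genes. The libraries came from embryonic mouse heart tissue at day 12, 3 from control embryos (Mrps5 fl/fl) and 3 from mutant embryos (Mrps5 fl/fl; cTNT-Cre), and each library was a pool of 5 hearts. Both groups carried floxed Mrps5 on each allele. Only the mutants carried the Cre transgene, whose troponin T promoter drives deletion in cardiomyocytes, so the presence of Cre and the loss of Mrps5 cannot be told apart. Endothelial, epicardial, mesenchymal and blood cells in the same hearts keep the gene, and the study describes the loss of mutant embryos around this stage.

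Mrps5 encodes a protein of the small subunit of the mitochondrial ribosome, which translates the proteins encoded by mitochondrial DNA, subunits of the respiratory chain and of ATP synthase. The enzymes of the tricarboxylic acid cycle are all encoded in the nucleus, made in the cytosol and imported into the mitochondrial matrix. They oxidise acetyl units to carbon dioxide and hand the electrons to the respiratory chain, whose oxidation of NADH keeps the cycle turning. Intermediates of the cycle also leave it for the synthesis of aspartate, citrate-derived lipids and phosphoenolpyruvate, and carboxylation of pyruvate refills it.

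Values listed by library are in the order of replicates 1, 2 and 3 throughout. The deleted gene was read first. Mrps5 had 9.65, 11.4 and 10.4 FPKM in controls, and 5.28, 7.41 and 10.4 FPKM in mutants. The library labelled mutant replicate 3 therefore lay within the range of the controls, and the calls that change without it are given after the pathway partners. The log2 difference of Mrps5 was -0.44 (95% interval -0.89 to 0.01, adjusted p = 0.338 by limma over all genes tested), -0.66 without that library and -0.23 without mutant replicate 1. All 20 cardiomyocyte markers on the fixed list were listed above 0. They summed to between 2.98% and 3.58% of all FPKM in control libraries and between 2.36% and 2.91% in mutant libraries, and 11 of the 20 were lower and 1 higher at an unadjusted p under 0.05, where 9.43% of all genes tested were lower and 5.57% higher. In heart tissue of mixed cell types, fewer cardiomyocytes and less RNA per cardiomyocyte cannot be told apart. Erythroid markers, 17 of 18 listed, summed to between 12.0% and 13.3% of FPKM in controls and to 23.5%, 10.8% and 22.0% in mutants. Of the 17, 7 were higher and 0 lower by the same rule. The endothelial and endocardial (11 genes tested), epicardial (8), cushion mesenchyme (8), macrophage (4 tested of 6) and liver (4) markers summed to at most 0.104% of FPKM per list in any library. By that rule, endothelial markers had 1 higher and 1 lower gene, epicardial markers 2 higher, macrophage markers 1 lower, and the other lists 0. Alternative fits used erythroid level as a covariate or left erythroid genes out. Beyond these, the part of cell types in the results below was not tested.

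No tricarboxylic acid cycle gene passed the test for a difference between mutant and control hearts. Of the 9 genes, 0 had an adjusted p under 0.05 by limma, where 0.0830% of all genes tested did, and 0 had an unadjusted p under 0.05, where 15.0% of all genes did. In 0 of the 9 were the values of the 3 mutant libraries separate from those of the 3 controls, where 20.8% of all genes were separate. On the log2(FPKM + 1) scale, 5 genes were higher and 4 lower in mutants, from -0.17 for Idh3a to 0.09 for Idh3g. Their median difference was 0.01 (from -0.07 to 0.10 with 1 library left out), and that of all genes tested was -0.02. A p above the threshold does not show equal levels, so the intervals are given with each gene. Taking the 9 intervals (95%) together, the lowest bound was -0.43, a fall of 25.6%, for Idh3a and the highest was 0.32, a rise of 24.5%, for Ogdh.

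**Figure D1:**
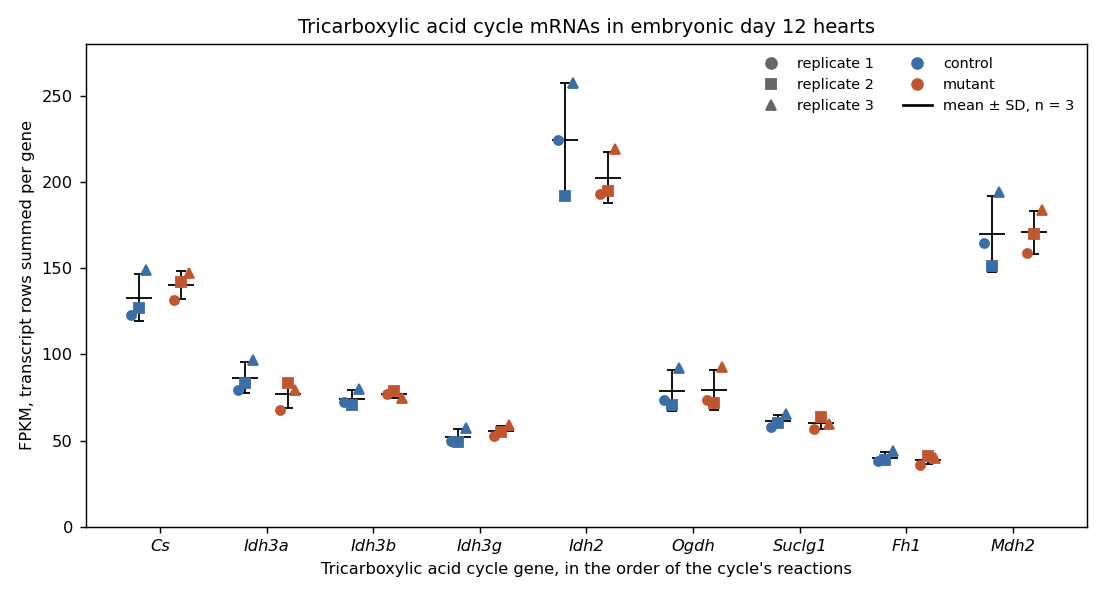
Summed FPKM of each of the 9 tricarboxylic acid cycle genes (y axis, linear from 0) in the 3 control and 3 mutant libraries, with the symbol's shape giving the replicate number and the bar the mean ± SD (n = 3). Control and mutant points overlap for every gene, and control replicate 3 is the highest library for 7 of the 9.

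The summed FPKM of the 9 genes was 882, 843 and 1036 in controls, and 847, 900.1 and 955 in mutants. The mean was 921 ± 102 in controls and 901 ± 53.8 in mutants (SD, n = 3 each), with overlapping ranges. As a share of the FPKM of all genes outside the erythroid list, the same sum was 0.227% ± 0.0219 in controls and 0.226% ± 0.0143 in mutants (SD, n = 3 each). The spread within a group was shared by the genes. Control replicate 3 lay above the control mean for 9 of 9 genes and control replicate 2 below it for 9 of 9. Among mutants, replicate 3 lay above the mutant mean for 7 of 9 and replicate 1 below it for 8 of 9. Within controls the mean deviation ran from -0.09 to 0.16 log2 units, a range larger than the log2 difference between genotypes of any of the 9 genes.

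Cs (ENSMUSG00000005683) encodes citrate synthase, which joins acetyl-CoA to oxaloacetate and opens the cycle. Its FPKM was 123.05, 127 and 149 in controls and 131, 142 and 147 in mutants. The mutant values fell inside the control range, although 2 of the 3 controls were below every mutant. The log2 difference was 0.08 (95% interval -0.15 to 0.31, adjusted p = 0.759 by limma).

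Isocitrate is oxidised by an NAD-dependent enzyme built from the catalytic alpha subunit (Idh3a) and the beta and gamma subunits (Idh3b, Idh3g), and by the separate NADP-dependent enzyme Idh2. Idh3a (ENSMUSG00000032279) had 79.4, 83.3 and 96.9 FPKM in controls and 67.9, 83.4 and 79.3 FPKM in mutants. Mutant replicate 1 was the lowest library and mutant replicate 2 lay among the controls. The log2 difference was -0.17 (95% interval -0.43 to 0.09, adjusted p = 0.515 by limma). It was -0.06 with erythroid level as a covariate, -0.08 without mutant replicate 1 and -0.09 without control replicate 3. Without mutant replicate 2 or control replicate 1 it was -0.23, and its sign did not turn in any of 16 alternatives.

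Idh3b (ENSMUSG00000027406) had 72.2, 70.5 and 79.9 FPKM in controls and 77.0, 78.7 and 74.8 FPKM in mutants, all 3 mutants within the control range. Its log2 difference was 0.05 (95% interval -0.14 to 0.24, adjusted p = 0.815 by limma). Idh3g (ENSMUSG00000002010) had 49.8, 49.2 and 57.5 FPKM in controls and 52.7, 55.0 and 58.9 FPKM in mutants. Mutant replicate 3 was the highest library for this gene, and the log2 difference was 0.09 (95% interval -0.12 to 0.30, adjusted p = 0.687 by limma).

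The levels of the 3 subunits relative to each other were compared within each library, since FPKM is a level per length. Idh3b stood at 0.910, 0.846 and 0.825 of Idh3a in controls and at 1.13, 0.944 and 0.943 of it in mutants. Idh3g stood at 0.627, 0.590 and 0.594 of Idh3a in controls and at 0.777, 0.659 and 0.743 in mutants. Both ratios were higher in each of the mutant libraries than in all controls. They share Idh3a as the denominator, so they are not independent of each other. The log2 difference was 0.22 for Idh3b to Idh3a and 0.26 for Idh3g to Idh3a, each with p = 0.1 by a two-sided exact permutation test (n = 3 against 3), the smallest p this design allows, and an adjusted p of 0.2 over the 6 ratios compared. With 1 library left out, the log2 difference of Idh3b to Idh3a ran from 0.135 (without mutant replicate 1) to 0.268. That of Idh3g to Idh3a ran from 0.214 to 0.332. Neither ratio passes a threshold of 0.05, which 3 libraries against 3 cannot reach.

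Idh2 (ENSMUSG00000030541), which yields NADPH, was the most abundant of the 9 genes. It had 224, 192 and 257 FPKM in controls and 193, 195 and 219 FPKM in mutants. The controls spanned the whole mutant range. The log2 difference was -0.14 (95% interval -0.42 to 0.14, adjusted p = 0.633 by limma). Idh2 to Idh3a was 2.59 ± 0.266 in controls and 2.65 ± 0.271 in mutants (SD, n = 3 each), with p = 0.7 by the exact permutation test, and Idh1 (the cytosolic NADP enzyme) to Idh2 was 0.124 ± 0.0265 and 0.134 ± 0.0205 (exact p = 0.5).

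**Figure D2:**
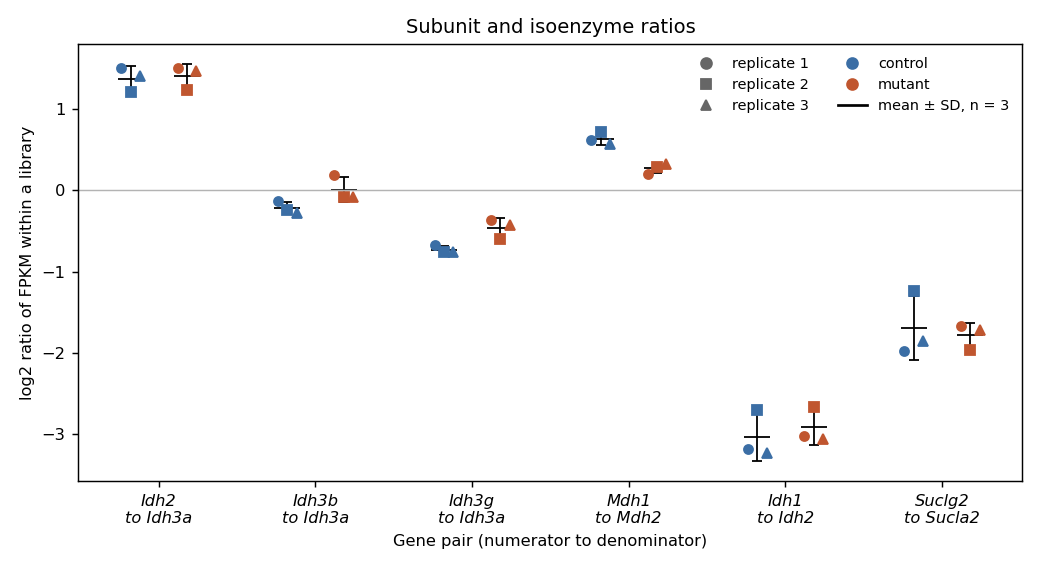
Log2 ratio of the FPKM of paired genes within each library (y axis) for 6 gene pairs (x axis), with control and mutant libraries in separate colours, shapes for the replicate number and bars for the mean ± SD (n = 3). Idh3b to Idh3a and Idh3g to Idh3a are higher, and Mdh1 to Mdh2 lower, in all 3 mutant libraries, while the other pairs overlap.

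Ogdh (ENSMUSG00000020456) encodes the E1 subunit of the 2-oxoglutarate dehydrogenase complex, which yields succinyl-CoA. It had 73.6, 70.8 and 92.4 FPKM in controls and 73.6, 71.6 and 92.4 FPKM in mutants. The values followed the replicate number and not the genotype, and the log2 difference was 0.01 (95% interval -0.31 to 0.32, adjusted p = 0.992 by limma). Its complex partners Dlst (E2) and Dld (E3, shared with pyruvate dehydrogenase) differed by -0.09 (95% interval -0.30 to 0.11) and 0.05 (95% interval -0.18 to 0.28). Ogdhl, a paralog of Ogdh with far lower FPKM, was at 5.99, 6.004 and 7.17 in controls and 8.85, 8.60 and 6.90 in mutants. Mutant replicate 3 fell among the controls, and the log2 difference was 0.30 (unadjusted p = 0.0352, adjusted p = 0.299 by limma).

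The sum for Ogdh was made up of different transcript rows in different libraries. The table lists 6 rows for the gene, 4 of them full-length coding transcripts. The row named Ogdh-204 in GENCODE M21 (ENSMUST00000101554) held 86.6%, 86.0% and 0.380% of the gene's FPKM in controls and 86.4%, 87.9% and 0.271% in mutants. The row Ogdh-202 (ENSMUST00000081894) held 64.0% in control replicate 3 and 59.1% in mutant replicate 3, and at most 2.00% in the other 4 libraries. The leading row thus changed with the replicate number in both genotypes.

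The coding sequences of Ogdh-204 and Ogdh-202 differ only at exon 4, where Ogdh-204 and Ogdh-201 hold an exon of 103 bases and Ogdh-202 and Ogdh-203 an exon of 91 bases. The exons are shown because they are what separates the coding parts of the leading rows. They were read from the GENCODE M21 transcripts by transcript name and lie on the plus strand of chromosome 11 in GRCm38 at chr11:6316978-6317080 and chr11:6316765-6316855. Capitals mark the 57 bases that are identical in a global alignment of the exons, 64.8% of the 88 aligned positions.
Ogdh-204 exon: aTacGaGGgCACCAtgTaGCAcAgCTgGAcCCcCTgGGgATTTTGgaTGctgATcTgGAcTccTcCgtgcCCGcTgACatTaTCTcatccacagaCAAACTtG
Ogdh-202 exon: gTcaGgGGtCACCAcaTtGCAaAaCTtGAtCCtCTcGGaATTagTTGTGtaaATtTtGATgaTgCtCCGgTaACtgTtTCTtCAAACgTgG
The lengths differ by 12 bases, which keeps the reading frame, and the coding sequences are 3069 bases for Ogdh-204 and 3057 for Ogdh-202.

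Summed over the rows that hold it, the longer exon accounted for 92.5%, 91.9% and 21.9% of Ogdh FPKM in controls and for 93.0%, 93.9% and 30.2% in mutants. The shorter exon accounted for 1.94%, 1.85% and 64.7% in controls and 2.05%, 1.401% and 61.2% in mutants. The rest lay in short coding rows that end before this exon. Among 8056 genes with more than 1 row and at least 1 FPKM in every library, the leading row was not the same in all 6 libraries for 25.6%. It was shared by both replicates 3 and differed from that of the other 4 libraries, as in Ogdh, for 30 genes or 0.372%. Rows are estimates of how reads shared by overlapping transcripts divide, and reads over either exon were not counted here. For the other 8 cycle genes 1 row led in all libraries, with at least 96.0% of the gene's FPKM. Cs, Idh3b and Idh3g have only 1 row, and the other row of Idh2, Suclg1 and Fh1 was at 0 in every library. Only Idh3a and Mdh2 could therefore have shown a change of leading row.

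**Figure D3:**
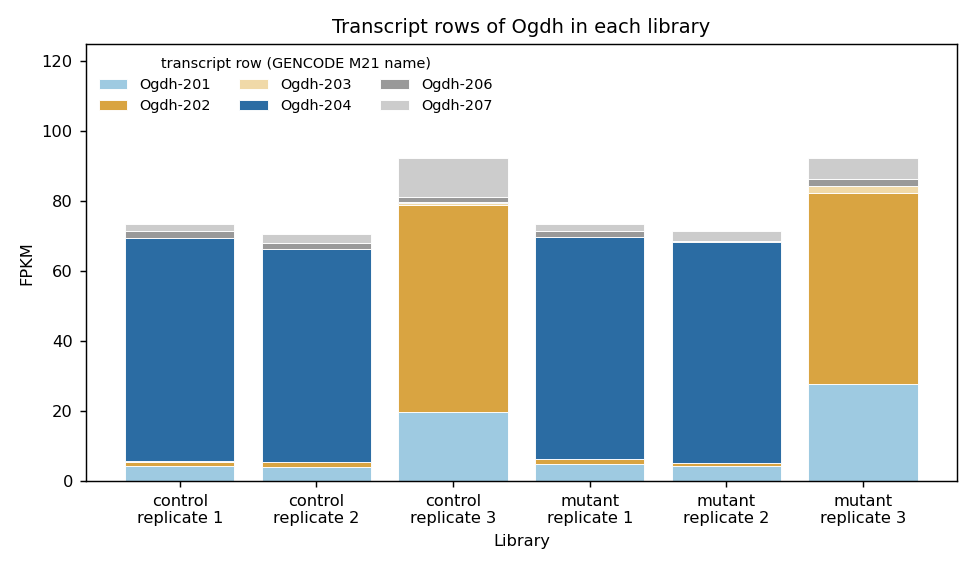
FPKM of the 6 Ogdh transcript rows stacked for each of the 6 libraries (y axis, linear from 0). Ogdh-204 (dark blue) makes up most of the bar in replicates 1 and 2 of both genotypes, and Ogdh-202 (dark yellow) most of it in replicate 3 of both.

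Suclg1 (ENSMUSG00000052738) encodes the alpha subunit of succinyl-CoA synthetase, which pairs with the beta subunit of Sucla2 in the ATP-forming enzyme and of Suclg2 in the GTP-forming enzyme. Its FPKM was 58.1, 60.4 and 65.3 in controls and 56.8, 63.7 and 59.6 in mutants. The groups overlapped, with a log2 difference of -0.03 (95% interval -0.22 to 0.17, adjusted p = 0.905 by limma). Sucla2 was at 53.9 ± 2.83 FPKM in controls and 48.4 ± 4.94 in mutants, and Suclg2 at 17.2 ± 5.43 and 14.003 ± 0.451 (SD, n = 3 each), where control replicate 2 alone had 23.3 FPKM. Suclg2 to Sucla2 was 0.318 ± 0.0918 in controls and 0.292 ± 0.0305 in mutants (exact permutation p = 0.9).

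Succinate is oxidised by succinate dehydrogenase, the cycle enzyme that sits in the inner membrane. Its catalytic subunits Sdha and Sdhb differed by 0.05 (95% interval -0.17 to 0.26) and 0.01 (95% interval -0.23 to 0.25) log2 units. Of the membrane anchors, Sdhc differed by -0.22 (95% interval -0.44 to 0.01, unadjusted p = 0.0583, adjusted p = 0.348 by limma). The other anchor, Sdhd, was at 116, 117 and 128 FPKM in controls and 84.0, 89.5 and 110.3 FPKM in mutants, without overlap. Its log2 difference was -0.35 (95% interval -0.61 to -0.09, unadjusted p = 0.0140, adjusted p = 0.223 by limma).

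Fh1 (ENSMUSG00000026526) encodes fumarase, which hydrates fumarate to malate, and was the least abundant of the 9 genes. It had 37.9, 38.6 and 44.0 FPKM in controls and 36.0, 40.8 and 39.8 FPKM in mutants. The ranges overlapped, and the log2 difference was -0.04 (95% interval -0.26 to 0.17, adjusted p = 0.857 by limma).

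Mdh2 (ENSMUSG00000019179) encodes the mitochondrial malate dehydrogenase, which regenerates oxaloacetate. It had 164, 151 and 194 FPKM in controls and 159, 169.8 and 184 FPKM in mutants, all 3 mutants within the control range. The log2 difference was 0.01 (95% interval -0.25 to 0.27, adjusted p = 0.973 by limma). Mdh1, its cytosolic counterpart in the malate-aspartate shuttle, had 251, 249 and 287 FPKM in controls and 183, 207 and 229 FPKM in mutants, so every mutant was below every control. The log2 difference of Mdh1 was -0.35 (95% interval -0.61 to -0.09, unadjusted p = 0.0146, adjusted p = 0.226 by limma). The ratio of Mdh1 to Mdh2 was 1.55 ± 0.0837 in controls and 1.21 ± 0.0507 in mutants (SD, n = 3 each). It was lower in 3 of 3 mutant libraries than in any control, a log2 difference of -0.36 with p = 0.1 by the exact permutation test, the smallest p possible, and an adjusted p of 0.2 over the 6 ratios.

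Ordered by mean FPKM in controls, the 9 genes ran from Idh2 (224) over Mdh2 (169.9), Cs (133), Idh3a (86.5), Ogdh (78.9), Idh3b (74.2), Suclg1 (61.3) and Idh3g (52.2) to Fh1 (40.1). Idh2 exceeded Mdh2 in 6 of 6 libraries, although their control ranges overlapped. The ranges of Idh3a and Ogdh, and of Ogdh and Idh3b, overlapped in both genotypes, with the first of each pair higher in 4 of 6 libraries. Each other pair of neighbours kept its order in 6 of 6 libraries. Across the 6 libraries the genes differed little in level, from a highest-to-lowest ratio of 1.13 for Idh3b to 1.43 for Idh3a. The genes tested whose log2 values were most like the mean standardised profile of the 9 were Dolk (Pearson r = 0.992), Ppp2r1a (0.992) and Tufm (0.977), a description over 6 libraries that share their scaling.

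The rest of the pathway was read from a fixed list of 43 partner genes, and 42 of them were tested, since Me3 was too low. By limma 0 of the 42 had an adjusted p under 0.05. At an unadjusted p under 0.05, 5 of 42 (11.9%) were higher, where 5.57% of all genes were, and 4 of 42 (9.52%) were lower, where 9.43% of all genes were. Among the 11 other genes of the cycle the higher gene was Ogdhl and the lower one Sdhd. In the 13 genes of pyruvate entry 0 had an unadjusted p under 0.05 with all 6 libraries, and 2 did without mutant replicate 3, Pdk3 and Pdk4, both lower, in a fit where 15.2% of all genes did. The pyruvate dehydrogenase subunit genes Pdha1, Pdhb and Dlat differed by -0.02 (95% interval -0.27 to 0.22), -0.09 (-0.27 to 0.10) and -0.01 (-0.23 to 0.21) log2 units. Values did not overlap between the groups in 11 of the 42 partners (26.2%), where 20.8% of all genes did not. These were 1 of the 11 other cycle genes (9.09%), 3 of the 13 genes of pyruvate entry (23.1%, Mpc2, Pdhx and Pdk4, all lower) and 7 of the 18 linked enzymes and carriers (38.9%).

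The other 7 genes with an unadjusted p under 0.05 were among the 18 linked enzymes and carriers (38.9%, where 15.0% of all genes passed in either direction). Pck2, the mitochondrial phosphoenolpyruvate carboxykinase, draws oxaloacetate out of the cycle. It had 7.72, 7.16 and 8.20 FPKM in controls and 21.9, 20.8 and 11.2 FPKM in mutants. Every mutant was above every control, with mutant replicate 3 nearest to them, and the log2 difference was 1.07 (95% interval 0.57 to 1.58, unadjusted p = 0.00110, adjusted p = 0.124 by limma). Pcx, pyruvate carboxylase, which refills oxaloacetate, had 5.65, 6.23 and 5.83 FPKM in controls and 9.63, 7.34 and 11.1 FPKM in mutants. Its log2 difference was 0.57 (95% interval 0.25 to 0.89, unadjusted p = 0.00309, adjusted p = 0.153 by limma), again without overlap. Pcx was highest in mutant replicates 1 and 3, which also had the highest erythroid shares. With erythroid level as a covariate its log2 difference was 0.33 (adjusted p = 0.387 by limma). The same covariate put Pck2 at 1.31, Got1 at 0.73, Ogdhl at 0.39 and Slc25a1 at 0.23, against 1.07, 0.52, 0.30 and 0.24 without it. The cause of these shifts was not tested.

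Got1, the cytosolic aspartate aminotransferase, had 34.7, 34.4 and 43.6 FPKM in controls and 60.1, 62.9 and 41.5 FPKM in mutants. Mutant replicate 3 lay within the control range. The log2 difference was 0.52 (95% interval 0.14 to 0.90, adjusted p = 0.222 by limma), whereas its mitochondrial counterpart Got2 differed by -0.05 (95% interval -0.28 to 0.19). The citrate carrier Slc25a1 was at 10.4 ± 0.488 FPKM in controls and 12.4 ± 0.447 in mutants (SD, n = 3 each), higher in every mutant. The 2-oxoglutarate carrier Slc25a11 was at 42.8 ± 2.71 and 36.7 ± 1.67 FPKM, and the aspartate-glutamate carrier Slc25a13 at 23.4 ± 1.35 and 20.1 ± 1.67 FPKM (SD, n = 3 each), both lower in every mutant. Their adjusted p by limma was 0.249, 0.286 and 0.324. Slc25a13 has 2 transcript rows. The row that led in the other 5 libraries, at 18.5 FPKM or more, was at 2.001 FPKM in mutant replicate 3, where the other row had 19.8 FPKM. On its most abundant row alone the log2 difference of Slc25a13 was -1.19 (adjusted p = 0.532 by limma), against -0.21 on the sum.

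**Figure D4:**
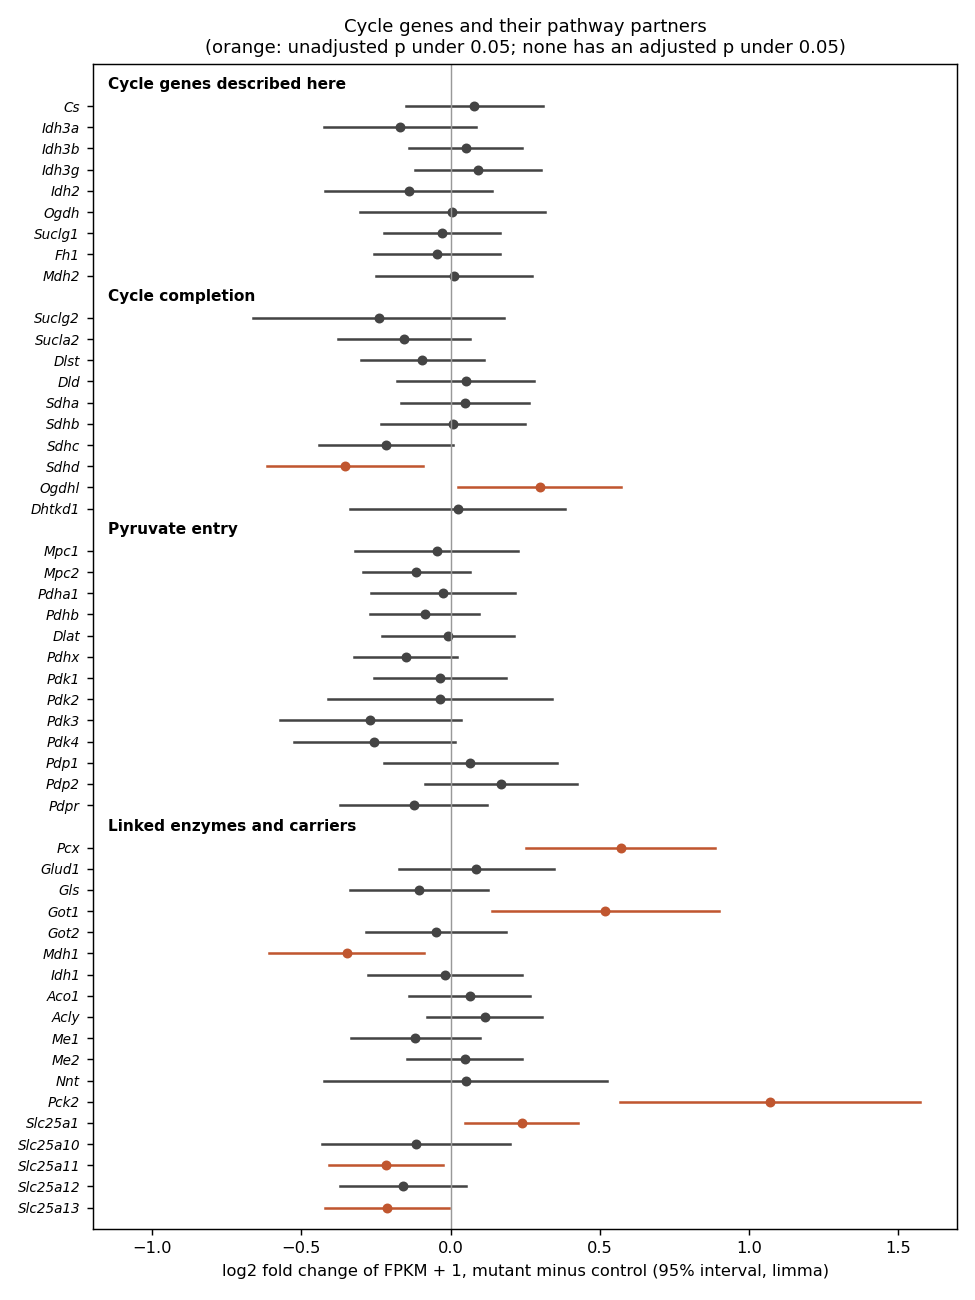
Log2 fold change of FPKM + 1, mutant minus control (x axis), with its 95% interval from limma for the 9 cycle genes and the tested partner genes except 1 (y axis), orange where the unadjusted p is under 0.05. The 9 cycle genes lie between -0.17 and 0.09 with intervals that cross 0, and Pck2 lies farthest to the right at 1.07.

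Without the library labelled mutant replicate 3, the adjusted p by limma fell under 0.05 for Pck2 (log2 difference 1.36, adjusted p = 0.000469) and Got1 (0.70, adjusted p = 0.0313), in a fit where 2.04% of all genes tested did. At an unadjusted p under 0.05, lower partner genes went from 4 to 8 of 42, where 8.82% of all genes were lower in that fit. The 4 gained were Pdk3 (log2 difference -0.40, unadjusted p = 0.00714), Pdk4 (-0.30, unadjusted p = 0.0472), Sdhc (-0.26, unadjusted p = 0.0496) and the dicarboxylate carrier Slc25a10 (-0.28, unadjusted p = 0.0191), with limma adjusted p between 0.139 and 0.327. Pdk3 and Pdk4 encode kinases that inhibit pyruvate dehydrogenase. Without mutant replicate 2 the adjusted p by limma fell under 0.05 for Pcx (0.72, adjusted p = 0.0392). In that fit 121 of the 13260 genes tested had an adjusted p under 0.05, against 11 with all libraries. For the 9 cycle genes the count stayed at 0 in both fits, at the adjusted and the unadjusted threshold. Without mutant replicate 3, Ogdh was at -0.11 and Mdh2 at -0.04, so the sign of these small differences turned.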

How the data were processed

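RNA sequencing was analysed for 3 control and 3 mutant libraries, grouped by the labels. The deposited values are FPKM per transcript, made by the authors. The submitters' processing notes name HISAT2, Bowtie2 2.2.8, StringTie 1.3.1, Cuffdiff 2.1.1 and build mm9, without their roles. FPKM hold no read counts, so the depth is unknown and no counting interval is given. The rows of each of 26191 genes were added. Genes with at least 1 FPKM in at least 3 libraries (13260) were tested as log2(FPKM + 1) with limma 3.58.1 in R 4.3.3 (moderated test, mean-variance trend, Benjamini-Hochberg adjustment), checked on simulated data. The added 1 shrinks the log2 differences of genes with low FPKM. Named genes were the 9 members, the listed partners with an unadjusted p under 0.05, each gene of a count of 5 or fewer, direct enzyme partners and the 3 genes of most alike profile. The values of 1 partner gene are not reported here, and it is left out of the plot of fold changes but kept in the counts. Sdha, Sdhb, Sdhc and Got2 were added after their values were seen. Ratios within a library were compared by two-sided exact permutation tests. P-values measure the spread between these pools of hearts. The members and lists were chosen with earlier results of these data known. Alternatives covered scaling, filters, pseudocount, erythroid genes, transcript choice, a replicate block and each library left out.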

Additional observations from a re-analysis of the deposited data

How the results depend on the processing

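Across 16 alternatives, 0 of the 9 cycle genes passed the adjusted or the unadjusted threshold of limma in any. Their lowest unadjusted p was 0.0735, their lowest adjusted p 0.362 and their largest log2 difference in size 0.25. Signs near 0 turned for Ogdh with quantile normalization (-0.00936), the most abundant transcript (-0.0222) or erythroid level as a covariate (-0.0740), and for Mdh2 with quantile normalization (-0.0419). With the erythroid covariate Suclg1 was at 0.0461 and Fh1 at 0.0223. Leaving out 1 library at a time gave ranges of -0.109 to 0.123 for Ogdh, -0.0669 to 0.111 for Mdh2, -0.0718 to 0.0172 for Suclg1 and -0.0844 to 0.0204 for Fh1. The same gave log2 differences of -0.0529 to 0.118 for Idh2 to Idh3a, -0.241 to 0.129 for Suclg2 to Sucla2 and -0.000600 to 0.292 for Idh1 to Idh2, and the signs of the other ratios did not turn. Over all genes, 11 adjusted calls became 4 with a replicate block, 6 without a filter, 4 with the most abundant transcript, 6 without the trend, 6 with the erythroid covariate and 5 to 270 with 1 library left out (121 without mutant replicate 2 and 270 without mutant replicate 3). The 1990 unadjusted calls became 1314 at a mean FPKM of at least 5 and 1216 to 2167 with 1 library left out, lowest without control replicate 1. Among the 42 partners, adjusted calls ranged from 0 to 2 and unadjusted higher calls from 3 to 5 with 1 library left out. Unadjusted lower calls, 4 in all libraries, ranged from 0 (without control replicate 3 or mutant replicate 1) to 8 (without mutant replicate 3), and were 1 with the erythroid covariate, where the log2 differences were -0.41 for Sdhd, -0.33 for Mdh1, -0.20 for Slc25a11 and -0.22 for Slc25a13, against -0.35, -0.35, -0.22 and -0.21 without it. The cause of these changes was not tested. Same-numbered control and mutant libraries had correlated deviations over all genes of 0.217, 0.111 and 0.0901, not above 0.1 in every pair, so the numbers were not taken to pair the samples, although each library correlated best with its own number. The replicate block changed no call of the 9 cycle genes (lowest unadjusted p 0.0892, for Idh3a, by limma). Among partners, limma with the block gave Ogdhl an unadjusted p = 0.0689 (adjusted p = 0.332), no longer under 0.05, and brought Sdhc (unadjusted p = 0.0376, adjusted p = 0.266) and Pdk3 (unadjusted p = 0.0174, adjusted p = 0.2098), both lower, under it.

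The groups hold 3 pools each, so a gene of the cycle can differ by up to the bounds of its interval without a call. The depth behind each value is unknown. The library labelled mutant replicate 3 has Mrps5 at the control level, and cardiomyocyte and erythroid marker levels move with the genotype or with single mutant libraries. Values of single transcript rows depend on how reads were divided among transcripts, as for Ogdh and Slc25a13. Enzyme protein and activity were not measured here.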
